A study of Mus musculus with 6 samples.

Results

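Il7r and 9 further genes that encode chains of interleukin receptors were followed in CD4 T cells with and without the transcription factor Foxo1. The genes were Il7r, Il2ra, Il2rb, Il2rg, Il4ra, Il21r, Il15ra, Il6ra, Il6st and Il10ra, chosen by their symbols, and all 10 were among the 13564 genes of the deposited normalized table. RNA was sequenced from 3 Foxo1TKO and 3 Foxo1Ctrl cultures, with 14783890 to 19675447 counts per library. Foxo1TKO cells carried floxed Foxo1 alleles and a Cre recombinase driven by Cd4 regulatory sequences, which deletes the gene during thymic development and not in CD4 T cells alone, since CD8 T cells arise from the same Cd4-expressing precursors. Foxo1Ctrl cells carried the same floxed alleles without Cre, and all mice were young adults on the C57BL/6 background with the Foxp3-GFP reporter. Naive CD4 T cells (CD44-/low, Foxp3-GFP-) were sorted from lymph nodes, and 50000 of them were kept for 4 days beside 250000 splenocytes of CD3e-deficient mice, which cannot supply T cells of their own, under stimulation by 0.1 µg/ml of soluble anti-CD3. The number of T cells is that of the labels, and the study's methods text gives a larger one, so the ratio of T cells to splenocytes is uncertain. The labels do not say whether the 3 replicates came from separate mice, so p-values measure only the spread between these cultures.

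Receptors for interleukins are assembled from chains that bind the cytokine and chains that signal. The common gamma chain, encoded by Il2rg, is shared by the receptors for IL-2, IL-4, IL-7, IL-9, IL-15 and IL-21, while Il6st encodes gp130, the signalling chain of the IL-6 family, and Il10ra the ligand-binding chain for IL-10. These receptors act through Janus kinases and STAT factors, and naive T cells depend on IL-7 for survival. Foxo1 is a known activator of Il7r transcription in T cells.

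Most of these chains share a signature of class I cytokine receptors, the codons for tryptophan, serine, any residue, tryptophan and serine close to the membrane. It was searched in the longest coding sequence of each gene and was present in 7 of the 10, against 0.329% of 21592 protein-coding genes. The box and 6 bases on each side are shown because they mark which members belong to this class, with the 15 bases of the box in capitals, on the coding strand (GENCODE M21, GRCm38):
Il7r: ggcttcTGGAGCGAGTGGAGTccaagt
Il2rb: gggaccTGGAGTCCCTGGAGCcagccc
Il2rg: caacagTGGAGTAAATGGAGCcagcct
Il4ra: ggcaccTGGAGTGAGTGGAGTcctagc
Il21r: gggaccTGGAGTGAGTGGAGTgacccc
Il6ra: ggccagTGGAGCGAATGGTCCccagag
Il6st: ggctacTGGAGTGACTGGAGTgaggag

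The boxes lie in coding exons, that of Il7r in exon 5 of 8 at chr15:9511151-9511165 (minus strand), that of Il2rg in exon 5 of 8 at chrX:101266215-101266229 (minus strand) and that of Il6ra in exon 6 of 10 at chr3:89885930-89885944 (minus strand). The boxes of Il4ra (chr7:125571554-125571568, plus strand) and Il21r (chr7:125628998-125629012, plus strand) were identical at all 15 bases, and the most different pair, Il2rb and Il6ra, shared 9. No box was found in Il2ra and Il15ra, which encode alpha chains of another fold, or in Il10ra, a class II receptor chain. Members also lay side by side in the genome, with 23954 bases and no other protein-coding gene between Il4ra and Il21r on chromosome 7, and 12096 bases and no other protein-coding gene between Il2ra and Il15ra on chromosome 2.

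Il7r, Il6ra and Il4ra fell in Foxo1TKO cells, and no member rose past the test. A call required an adjusted p under 0.05 in the quasi-likelihood test of edgeR, adjusted by Benjamini-Hochberg over the 13691 genes tested, and a fold change over 1.5. The 3 members called lower of 10 stand beside 11.8% of all genes tested that were called lower, and the 0 called higher beside 11.1%. Il21r and Il10ra had unadjusted p-values of 0.0176 and 0.013 in the edgeR test and were not called. DESeq2 called both higher, among 1823 of 13691 genes that it called higher. The normalized counts of the genotypes did not overlap for 7 of the 10 members, against 42.7% of all genes tested. Over the members the median log2 fold change was -0.46, and over all genes tested 0.01.

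**Figure D1:**
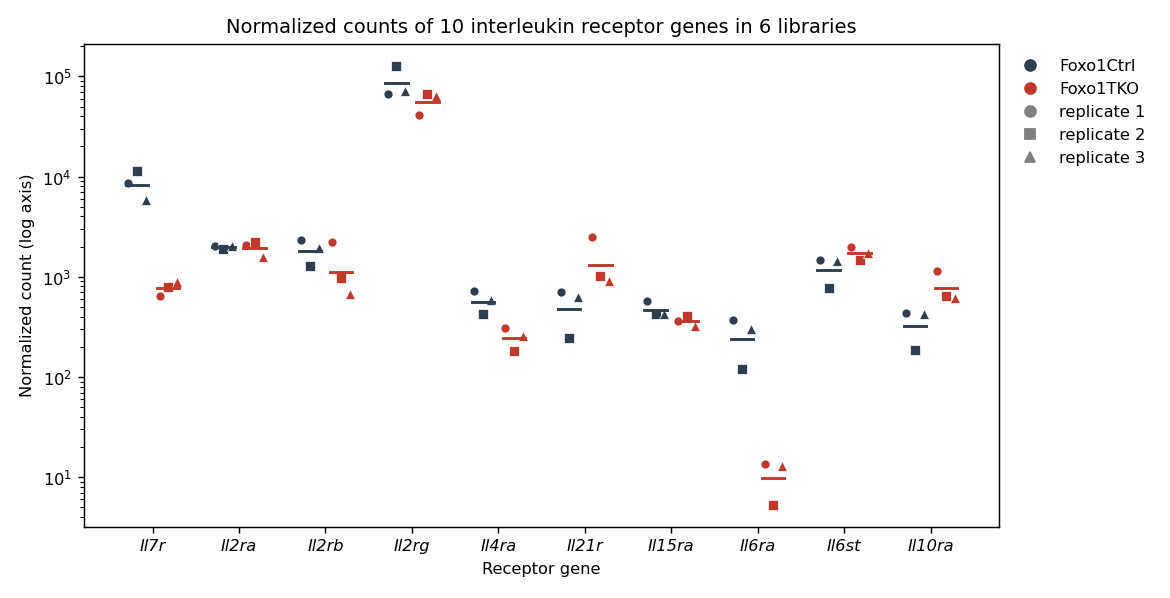
Normalized counts (log axis) of the 10 receptor genes in each library, with Foxo1Ctrl in dark blue, Foxo1TKO in red, symbols for the replicates and bars for the geometric means of 3 libraries. Il7r sits between 645 and 882 in Foxo1TKO and between 5837 and 11444 in Foxo1Ctrl, Il6ra falls to between 5.3 and 13.5, and Il2ra lies at one height in both genotypes.

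Foxo1 itself had 85.4, 46.5 and 114.8 normalized counts in Foxo1TKO replicates 1, 2 and 3 and 1529, 2285 and 1598 in the Foxo1Ctrl replicates, a log2 fold change of -4.45 ± 0.36 (SE, n = 3 per genotype, edgeR adjusted p = 0.000195). All Foxo1TKO libraries were far below all Foxo1Ctrl libraries. In each genotype 1 library stood apart by the base composition of its transcripts. Relative to the mean of its genotype, the median log2 level of GC-rich genes minus that of GC-poor genes was 0.34 in Foxo1TKO replicate 1 and -0.44 in Foxo1Ctrl replicate 2, against -0.20 to 0.26 in the other 4. The 0.34 of Foxo1TKO replicate 1 lay near the 0.26 of Foxo1Ctrl replicate 1. Where leaving out these 2 libraries changed a member's call or moved its fold by much, the value without them is given. They were picked after the data were seen. Without them, 1933 of 12786 genes were called higher and 2211 lower, against 1525 and 1619 of 13691 with all libraries. P-values of that fit are given as description and not as support.

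The culture held other cells than T cells, and the sources used here do not say that T cells were separated from splenocytes before extraction, so that fewer cells of a type and less RNA per cell cannot be told apart. Summed over 8 T cell markers, the level was 7620 to 8341 TPM (a level per transcript length, scaled to the same total in each library) in Foxo1TKO and 9291 to 9910 in Foxo1Ctrl, with 1 of the 8, Cd28, called lower. The markers differed in direction, with log2 fold changes of 0.08 for Cd3e, 0.16 for Cd5 and 0.19 for Lck. Those of Cd28 (-1.43), Cd3d (-0.54), Cd2 (-0.48), Cd3g (-0.35) and Cd4 (-0.30) were negative. Markers of B cells were low but differed between the genotypes, their sum over 8 genes being 6.93 to 10.1 TPM in Foxo1TKO and 22.5 to 29.6 in Foxo1Ctrl, and Ms4a1, Cd79b, Cd22 and Cd79a, which encode B cell surface and antigen receptor proteins, were called lower. Among NK cell markers the sum over 5 genes was 78.6 to 133 TPM in Foxo1TKO and 342 to 448 in Foxo1Ctrl, nearly all from Klrd1 (called lower) and Eomes (called higher), which activated T cells also express, while Ncr1 had at most 13 counts, Klra8 was at 0 in every library, and Klrb1c, which encodes NK1.1, had 13 to 48 counts in Foxo1TKO and 27 to 69 in Foxo1Ctrl and did not pass the test. Macrophage and monocyte markers (7 genes) summed to 4.47 to 6.36 TPM in Foxo1TKO and 2.66 to 3.99 in Foxo1Ctrl, mostly from Cd68. Cd68 had 60.0 to 83.7 normalized counts in Foxo1TKO and 34.9 to 44.6 in Foxo1Ctrl, without overlap, and did not pass the test (edgeR adjusted p = 0.099). Mpeg1 reached 35.4 and 52.3, while Csf1r and Adgre1 had no more than 3.4 normalized counts. Dendritic cell markers (5 genes) summed to 2.42 to 3.74 TPM in Foxo1TKO and 2.01 to 3.71 in Foxo1Ctrl. For neutrophil markers (5 genes) the sum was 0 to 7.32 TPM in Foxo1TKO and 0 to 0.09 in Foxo1Ctrl, and for CD8 T cell markers (2 genes) 4.27 to 6.48 and 6.87 to 8.29. Regulatory T cell markers (4 genes) summed to 9.73 to 14.6 and 12.5 to 17.9 TPM, with Lrrc32 called higher, Nrp1 called lower and Foxp3 at 6.4 to 27.4 normalized counts. The part of these cells in the differences below was not tested.

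Transcripts of the IL-7 receptor chain Il7r fell in Foxo1TKO cells. Il7r (ENSMUSG00000003882, chr15:9505788-9530176, minus strand) had 645, 784 and 882 normalized counts in Foxo1TKO replicates 1, 2 and 3 and 8659, 11444 and 5837 in Foxo1Ctrl. Every Foxo1Ctrl library was above every Foxo1TKO library. The log2 fold change was -3.49 ± 0.28 (SE, n = 3 per genotype, 95% interval -4.13 to -2.85), an 11.2-fold difference, with an edgeR adjusted p of 0.000191. It was -3.12 without both libraries that stood apart (edgeR adjusted p = 3.85e-05). Per transcript length, Il7r stood at 17.4, 18.8 and 20.4 TPM in Foxo1TKO and at 203, 211 and 136 TPM in Foxo1Ctrl, which moved it from the second of the 10 members in Foxo1Ctrl to the seventh in Foxo1TKO. It remained measurable in the Foxo1TKO cultures, at a level per length within the range of Il15ra and Il6st in the same libraries. Foxo1 transcripts also remained there, at 46.5 to 114.8 normalized counts. Which cells the remaining Il7r transcripts came from was not tested.

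The transcripts assigned to Il7r also differed in length. The weighted transcript length, an average over annotated isoforms weighted by their estimated abundance, was 2865, 2898 and 2828 bases in Foxo1TKO and 3075, 3245 and 3091 in Foxo1Ctrl, without overlap. GENCODE lists 2 coding transcripts of Il7r, of 3540 and 3516 bases, and 2 transcripts without a coding sequence, of 1548 and 359 bases. Il2ra and Il2rg went the other way, with 3744 to 3949 bases in Foxo1TKO and 3502 to 3681 in Foxo1Ctrl for Il2ra, and 1407 to 1418 and 1329 to 1363 for Il2rg. These 3 members of 10 whose lengths did not overlap stand beside 13.5% of the 10517 tested genes whose length varied between libraries. Isoform abundances were not among the deposited values, so which isoforms differed is not resolved here.

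**Figure D2:**
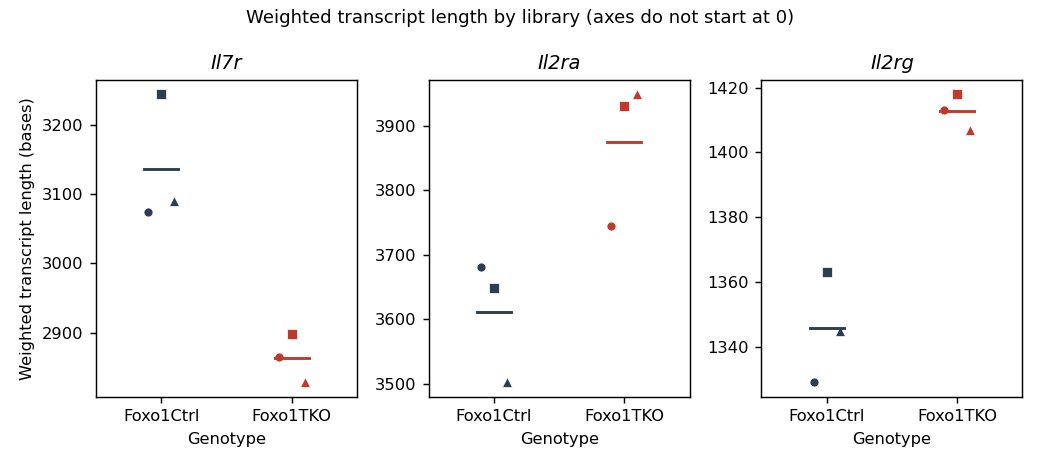
Weighted transcript length in bases (axes do not start at 0) of Il7r, Il2ra and Il2rg in each library, with bars for the mean of 3 libraries. Il7r is shorter in Foxo1TKO (mean 2864 against 3137 bases), while Il2ra (3874 against 3611) and Il2rg (1413 against 1346) are longer.

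Il2rg (ENSMUSG00000031304, chrX:101264378-101268255, minus strand), the common gamma chain, was by far the most abundant member. It reached 2419, 3462 and 3186 TPM in Foxo1TKO and 3938, 5992 and 4155 TPM in Foxo1Ctrl, which was 90.1% to 96.1% of the summed TPM of the 10 members. Its normalized counts were 41356, 66116 and 64196 in Foxo1TKO and 67171, 127015 and 71933 in Foxo1Ctrl, so that the genotypes came close without overlapping. The log2 fold change of -0.63 ± 0.30 (SE, n = 3 per genotype, 95% interval -1.32 to 0.05) did not pass the test (edgeR adjusted p = 0.165). Leaving out both libraries that stood apart brought it to -0.09, and leaving out Foxo1Ctrl replicate 2 alone to -0.28. Gm20489, a protein-coding gene model that shares exons with Il2rg on the same strand, received 0 counts in 5 libraries and 6 in Foxo1TKO replicate 3.

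The remaining chains of the IL-2 and IL-15 receptors did not pass the test. Il2ra (ENSMUSG00000026770, chr2:11642807-11693193, plus strand), the alpha chain CD25 that raises affinity for IL-2, had 2065, 2221 and 1591 normalized counts in Foxo1TKO and 2034, 1892 and 2029 in Foxo1Ctrl. The genotypes overlapped, and the log2 fold change of -0.02 ± 0.16 (SE, n = 3 per genotype, edgeR adjusted p = 0.947) had a 95% interval from -0.40 to 0.36. Il15ra (ENSMUSG00000023206, chr2:11705290-11734317, plus strand), its neighbour, which presents IL-15, had 363, 403 and 323 normalized counts in Foxo1TKO and 569, 423 and 426 in Foxo1Ctrl. These values came close without overlapping, and the log2 fold change of -0.38 ± 0.20 (95% interval -0.83 to 0.07) had an adjusted p of 0.204 in edgeR.

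Il2rb (ENSMUSG00000068227, chr15:78479256-78495271, minus strand), the signalling chain shared by IL-2 and IL-15, had 2199, 963 and 668 normalized counts in Foxo1TKO and 2313, 1288 and 1938 in Foxo1Ctrl. Foxo1TKO replicate 1, which stood apart, was as high as Foxo1Ctrl, and the other two Foxo1TKO libraries were below all Foxo1Ctrl libraries. Over all libraries the log2 fold change was -0.53 ± 0.43 (SE, n = 3 per genotype, 95% interval -1.52 to 0.46, edgeR adjusted p = 0.415). Without Foxo1TKO replicate 1 it was -1.18 (edgeR adjusted p = 0.0296), past the test. Leaving out both libraries that stood apart, a choice made after the data were seen, gave -1.38 (edgeR adjusted p = 0.00117). The answer for Il2rb thus rests on Foxo1TKO replicate 1.

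The neighbours Il4ra and Il21r had opposite directions. Il4ra (ENSMUSG00000030748, chr7:125552120-125579474, plus strand), which binds IL-4 and takes part in the IL-13 receptor, had 309, 183 and 259 normalized counts in Foxo1TKO and 719, 422 and 583 in Foxo1Ctrl, without overlap. It fell by 1.20 ± 0.27 on the log2 scale (SE, n = 3 per genotype, 95% interval -1.83 to -0.56, edgeR adjusted p = 0.0163), a 2.29-fold difference. Its log2 fold change was -1.56 without both libraries that stood apart (edgeR adjusted p = 0.00103). The call was lost when Foxo1TKO replicate 2 or 3 or Foxo1Ctrl replicate 1 or 3 was left out (edgeR adjusted p-values of 0.0521 to 0.0736), with the direction kept each time. B cells also express Il4ra, which stood at 3.07 to 5.77 TPM in Foxo1TKO and 6.15 to 12.9 TPM in Foxo1Ctrl, and the summed B cell markers given above were lower in Foxo1TKO too. Their part in the result was not tested.

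Il21r (ENSMUSG00000030745, chr7:125603429-125633570, plus strand), the chain specific to IL-21, had 2498, 1015 and 902 normalized counts in Foxo1TKO and 708, 244 and 624 in Foxo1Ctrl. All Foxo1TKO libraries were above all Foxo1Ctrl libraries, with the highest and the lowest value in the 2 libraries that stood apart. The log2 fold change of 1.48 ± 0.50 (SE, n = 3 per genotype, 95% interval 0.34 to 2.63) missed the threshold with an edgeR adjusted p of 0.065. With only Foxo1TKO replicate 1 left out it was 0.87 (edgeR adjusted p = 0.168). Without both of these libraries it was 0.53 with an edgeR adjusted p of 0.0193, which is under the threshold for p but also under the fold limit of 1.5. In the window of 250 bases before the RefSeq start (GRCm38.p6), the forkhead motif recognised by Foxo factors, GTAAACA on either strand, was found in Il21r alone among the 8 members with a window, and in 3.17% of 32851 windows. It is shown on the plus strand with the motif in capitals, at chr7:125603391-125603397, its first base 38 bases before the start:
Il21r: ggcggggcacTGTTTACcacatcccct

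A STAT motif, TTCNNNGAA, which is the same on both strands, was found in the window of Il7r alone among the members and in 7.02% of all windows. It lies at chr15:9530010-9530018, within the span of the gene as GENCODE gives it, and is shown on the minus strand, the strand of the gene, with the motif in capitals:
Il7r: gttcaggagcTTCAGGGAAtaccaagatg

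These matches describe the letters of the windows only, and binding was not measured in these cells.

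Of the IL-6 receptor, the ligand-binding chain fell and the signalling chain did not. Il6ra (ENSMUSG00000027947, chr3:89864059-89913196, minus strand) had 13.5, 5.3 and 12.9 normalized counts in Foxo1TKO, from 16, 6 and 12 counts, and 373, 119 and 304 normalized counts in Foxo1Ctrl. The lowest Foxo1Ctrl library, replicate 2, was still far above all Foxo1TKO libraries. The log2 fold change was -4.53 ± 0.55 (SE, n = 3 per genotype, 95% interval -5.81 to -3.25, edgeR adjusted p = 0.00107), a 23.2-fold difference and the largest among the members. It was -5.11 without both libraries that stood apart (edgeR adjusted p = 6.8e-05). An antisense gene model, Gm42809, overlaps exons of Il6ra and had 0 to 2 counts in Foxo1TKO and 5 to 31 in Foxo1Ctrl. Reads of the pair cannot be told apart without strand, and strand is not given in the sources used here.

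Il6st (ENSMUSG00000021756, chr13:112464070-112510086, plus strand), gp130, had 1975, 1475 and 1721 normalized counts in Foxo1TKO and 1479, 767 and 1450 in Foxo1Ctrl. The genotypes overlapped by a few counts. The log2 fold change of 0.48 ± 0.26 (SE, n = 3 per genotype, 95% interval -0.12 to 1.09) did not pass the test (edgeR adjusted p = 0.224). It was 0.24 without Foxo1Ctrl replicate 2 and 0.13 without both libraries that stood apart.

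Il10ra (ENSMUSG00000032089, chr9:45253837-45269149, minus strand) resembled Il21r, with 1149, 643 and 619 normalized counts in Foxo1TKO and 438, 185 and 423 in Foxo1Ctrl. All Foxo1TKO libraries were higher than all Foxo1Ctrl libraries. With a log2 fold change of 1.20 ± 0.38 (SE, n = 3 per genotype, 95% interval 0.33 to 2.07) the edgeR adjusted p was 0.0526, just outside the threshold. Without both libraries that stood apart the log2 fold change was 0.55 with an edgeR adjusted p of 0.0156, again past the threshold for p and short of the fold limit. The second chain of the IL-10 receptor, Il10rb, which is widely expressed, had 1643 to 1917 normalized counts in Foxo1TKO and 1702 to 2084 in Foxo1Ctrl (log2 fold change -0.06 ± 0.15, SE, n = 3 per genotype, edgeR adjusted p = 0.799).

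**Figure D3:**
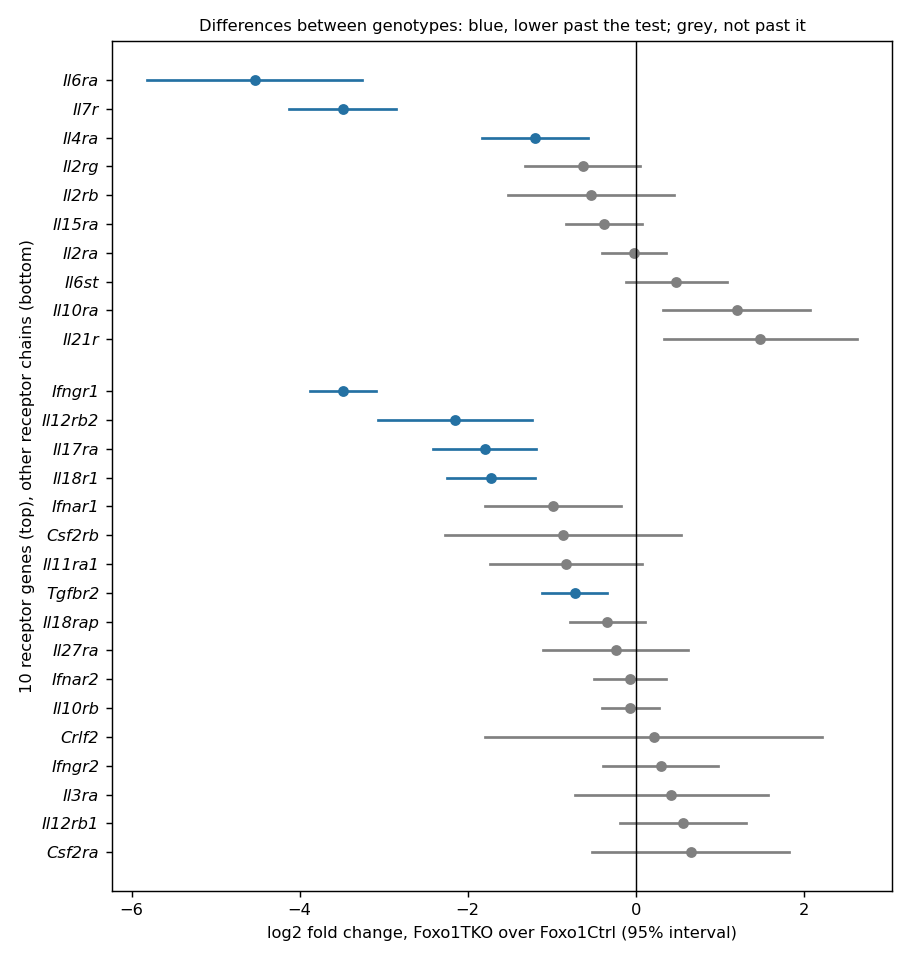
Log2 fold changes of Foxo1TKO over Foxo1Ctrl with 95% intervals for the 10 members (top) and 17 other cytokine receptor chains (bottom). Blue marks genes called lower and grey genes not called. Il9r, the 1 chain called higher, is left out because no Foxo1Ctrl library had more than 3 counts of it. Il6ra, Il7r and Ifngr1 lie farthest to the left, and the intervals of Il10ra and Il21r lie to the right of 0 although neither passed the adjusted test.

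Ordered by mean TPM, only Il2rg and Il7r stood clear of the next member in Foxo1Ctrl, at 4695 ± 1129 and 183 ± 41.2 TPM (SD, n = 3). From Il2ra (37.2 ± 5.66 TPM) through Il2rb, Il15ra, Il21r, Il6st, Il4ra and Il10ra down to Il6ra (4.92 ± 2.75 TPM), the ranges of neighbours overlapped. In Foxo1TKO, Il2rg (3022 ± 540 TPM) again stood clear of the rest, Il21r (45.5 ± 31.8 TPM) came second, and neighbours overlapped from there down to Il10ra (16.4 ± 7.61 TPM). Il4ra (4.36 ± 1.35 TPM) and Il6ra (0.18 ± 0.113 TPM) followed at lower ranges of their own.

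Ratios between chains of one receptor were taken within each library, where scaling between libraries drops out. Of 10 ratios of TPM, 4 did not overlap between the genotypes. The normalized counts of 42.7% of all single genes tested did not overlap either, and a share over ratios of other genes was not taken. The ratio of Il7r to Il2rg was 0.00721, 0.00544 and 0.0064 in Foxo1TKO and 0.0516, 0.0351 and 0.0327 in Foxo1Ctrl, a 6.18-fold difference of the geometric means. That of Il6ra to Il6st was 0.0112, 0.00692 and 0.00787 in Foxo1TKO and 0.415, 0.297 and 0.395 in Foxo1Ctrl, a 43.1-fold difference. The size of this difference is uncertain, since Il6ra had 16, 6 and 12 counts in the Foxo1TKO libraries. Its weighted transcript length there, which enters its TPM, was 3343, 3343 and 6554 bases. In the other direction, Il21r to Il2rg was 4.48-fold and Il10ra to Il10rb 2.48-fold higher in Foxo1TKO. For each of the 4 the two-sided exact permutation p was 0.1, the smallest that 3 against 3 libraries allow, and 0.25 after adjustment over the 10 ratios, so that none can pass the threshold in this design.

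The other 6 ratios overlapped. Il2ra to Il2rb, the high-affinity chain over the signalling chain, was 0.964, 2.47 and 2.54 in Foxo1TKO and 1.01 to 1.70 in Foxo1Ctrl (two-sided exact permutation p = 0.4). Foxo1TKO replicate 1 lay just below all Foxo1Ctrl values and the other two Foxo1TKO libraries above them. The summed TPM of the chains that pair with the common gamma chain (Il7r, Il2rb, Il4ra, Il21r and Il9r) was 0.0619, 0.0195 and 0.0188 of the Il2rg TPM in Foxo1TKO and 0.0704, 0.0402 and 0.0476 in Foxo1Ctrl (two-sided exact permutation p = 0.3). Leaving out Foxo1TKO replicate 1 raised the number of ratios without overlap from 4 to 7, but fewer libraries make overlap less likely.

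**Figure D4:**
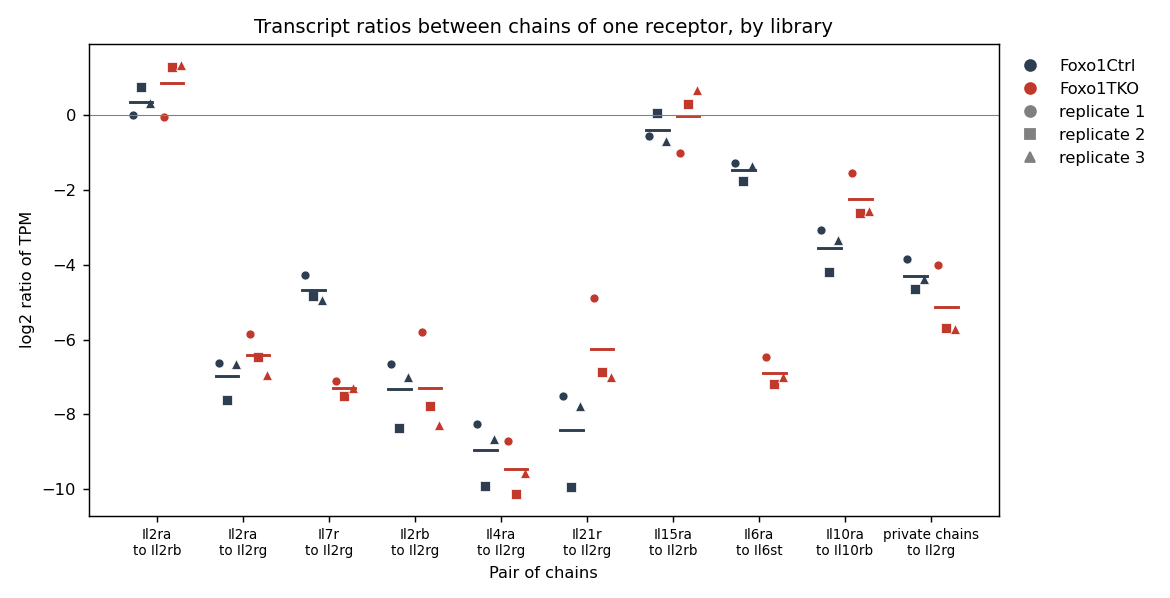
Log2 ratio of TPM for 10 pairs of chains in each library, with bars for the mean of 3 libraries; private chains are Il7r, Il2rb, Il4ra, Il21r and Il9r summed. Il7r to Il2rg and Il6ra to Il6st are lower in all Foxo1TKO libraries (means -7.31 against -4.68 and -6.88 against -1.45), while Il21r to Il2rg and Il10ra to Il10rb are higher.

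Among 24 other cytokine receptor chains, 18 could be tested, of which 5 fell and 1 rose (median log2 fold change -0.29). This count and those of the lists below stand beside 11.8% of all genes tested called lower and 11.1% called higher. Ifngr1, the ligand-binding chain for interferon gamma, had 3865 to 4590 normalized counts in Foxo1TKO and 43490 to 53593 in Foxo1Ctrl and fell by 3.49 ± 0.17 on the log2 scale (SE, n = 3 per genotype, edgeR adjusted p = 3.42e-05), as far as Il7r. The IL-12 receptor chain Il12rb2 (-2.15), the IL-17 receptor chain Il17ra (-1.80) and the IL-18 receptor chain Il18r1 (-1.72) fell as well, with Tgfbr2 (-0.73), named to complete the count, as the fifth. Partner chains of these receptors did not pass the test, with log2 fold changes of 0.30 for Ifngr2, 0.56 for Il12rb1 and -0.34 for Il18rap. The chain that rose was Il9r, a further partner of the common gamma chain, with 28, 14 and 13 counts in Foxo1TKO and 0, 2 and 3 in Foxo1Ctrl. Crlf2, which pairs with Il7r in the receptor for TSLP, had 377, 103 and 63.3 normalized counts in Foxo1TKO and 252, 21.7 and 196 in Foxo1Ctrl, with wide overlap.

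Of 15 cytokines that bind the members, 10 were too low to test and 3 of the other 5 fell. Il2 had 5.9 to 17.2 normalized counts in Foxo1TKO and 32.0 to 80.1 in Foxo1Ctrl (log2 fold change -2.28 ± 0.54, SE, n = 3 per genotype, edgeR adjusted p = 0.016), and Il21 had 1, 6 and 0 counts against 32, 33 and 36 (log2 fold change -3.61, edgeR adjusted p = 0.00705). Between the genotypes, Il21 was thus lower in Foxo1TKO, where its receptor chain Il21r was higher without passing the test. Ebi3, a subunit of IL-27, fell by 1.31 on the log2 scale. Il7 had at most 3 counts in any library, Il4 at most 6, Il6 at most 2 and Il10 at most 11, and Il15 reached 23 counts in Foxo1Ctrl replicate 2 and at most 5 elsewhere.

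Downstream of the receptors, 9 Janus kinase and STAT genes were followed and all tested, and 1 rose and 1 fell (median log2 fold change -0.002). Both counts are close to the shares over all genes tested, 11.1% higher and 11.8% lower. Stat5a, which acts after IL-2 and IL-7, had 1199, 1081 and 1187 normalized counts in Foxo1TKO and 571, 515 and 636 in Foxo1Ctrl and rose by 1.01 ± 0.16 on the log2 scale (SE, n = 3 per genotype, edgeR adjusted p = 0.00313). Its near-identical paralog Stat5b (-0.31, adjusted p = 0.346 in edgeR) did not pass the test. Stat4, which acts after IL-12, fell by 0.67 on the log2 scale. The kinase Jak3, which binds the common gamma chain, had a log2 fold change of 0.06 and Jak1 of -0.41, neither past the test.

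Of 10 genes that cytokines induce or that mediate survival, all tested, 6 fell and 2 rose (median log2 fold change -0.94). Socs3, a feedback inhibitor that binds gp130, had 16.1, 7.0 and 6.4 normalized counts in Foxo1TKO and 609, 300 and 448 in Foxo1Ctrl and fell by 5.36 ± 0.45 on the log2 scale (SE, n = 3 per genotype, edgeR adjusted p = 0.00021). The kinase genes Pim1 (-3.06) and Pim2 (-2.28) and the feedback inhibitor Socs2 (-2.58) fell, and so did the survival genes Bcl2 (-1.04) and Mcl1 (-0.83), named to complete the count. Cish, a STAT5-induced inhibitor, rose by 1.18 ± 0.36 on the log2 scale (SE, n = 3 per genotype, edgeR adjusted p = 0.045), and Bcl6, a transcriptional repressor, by 1.58. The list therefore did not move in a single direction.

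All 8 transcription factor genes listed as acting on Il7r were tested, and 4 fell and 2 rose. Beside Foxo1, these were Foxp1 (-1.41), which competes with Foxo1 at Il7r, Runx3 (-1.21) and Ets1 (-1.13). Gfi1, a repressor of Il7r, had 502, 619 and 790 normalized counts in Foxo1TKO and 243, 313 and 261 in Foxo1Ctrl and rose by 1.22 ± 0.22 on the log2 scale (SE, n = 3 per genotype, edgeR adjusted p = 0.00626). Runx1 rose by 0.78. Gabpa (-0.20) and Foxo3 (-0.57) did not pass the test.

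Across the 6 libraries, the genes whose pattern lay closest to that of Il7r were Slc25a33, Gm19261, Gm30054, Ctla2b and Nod1, in this order. The root mean square difference of their centred log2 levels from Il7r was 0.241 to 0.277, taken among genes that averaged 100 normalized counts or more. Slc25a33, a mitochondrial nucleotide carrier, had 45.6, 60.5 and 55.8 normalized counts in Foxo1TKO and 663, 892 and 647 in Foxo1Ctrl. Foxo1Ctrl replicate 2, which stood apart, was highest for Il7r and for all 5. Because these genes were picked by their likeness to Il7r over the same libraries, the shared peak follows largely from the choice.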

How the data were processed

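The authors used STAR 2.7.6a with the mouse GRCm38 genome (Ensembl release 101) and deposited RSEM 1.3.1 expected counts, TPM values and weighted transcript lengths per gene and library. They also deposited a table of normalized signal, made with DESeq2, whose values were matched within 0.1% (100% of values) by the count divided by a size factor and a relative effective length. Strand was not given in the sources used here.

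Expected counts were rounded. The 13691 of 55487 genes that reached 10 counts in 3 or more libraries were tested with edgeR 4.0.16 (TMM, quasi-likelihood, prior count 1) in R 4.3.3. The model held the genotype alone. Normalized counts are counts scaled by the TMM library sizes to their mean. A standard error is the absolute log2 fold change divided by the square root of F. Ratios used an exact permutation test (Python 3.11.15). Alternatives included DESeq2 1.42.0, limma 3.58.1, other scalings and filters, and each library left out. A correction for GC and length, and the fit without the 2 libraries that stand apart, were added after the data were seen.

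The members and gene lists were chosen with earlier results of these data known. Named were the members, Foxo1, up to 4 called genes per list and direction, fixed receptor and cytokine genes, and the 5 genes most like Il7r. A gene of the Janus kinase and STAT list is not reported here and is left out of the counts of that list. GENCODE M21 (GRCm38) gave positions and coding sequences, and RefSeq (GRCm38.p6) gave promoter windows for 8 members. The scripts were tested on simulated data. Counting error is not the replicate error, and p-values treat the libraries as independent.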

Additional observations from a re-analysis of the deposited data

How the results depend on the processing

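Il7r and Il6ra were called lower under every alternative run, with log2 fold changes of -3.71 to -3.12 and -5.11 to -4.21, and Il4ra under the 10 that kept all or 4 of the libraries but not in 4 of the 6 fits that left out 1 library. The number of members called lower was 3 or 4 in the alternatives that left no single library out and 2 to 4 (range) in the fits that left out 1 library each. The number called higher, 0 in edgeR, was 2 (Il21r and Il10ra) with DESeq2, without a filter on low counts, with the replicate block and after the GC and length correction, and 1 (Il10ra) with limma-voom, DESeq2 size factors in edgeR and upper quartile scaling; it was 0 whichever library was left out, and also without both libraries that stand apart, where Il21r and Il10ra had adjusted p-values under 0.05 but folds under 1.5. The cause was not tested. Il2ra reversed, to 0.12 without Foxo1TKO replicate 3 and 0.084 after the GC and length correction, and was not called there either. The number of ratios without overlap, 4 of 10, was 4 to 7 when each library was left out, 9 without both libraries that stand apart, where fewer libraries make overlap less likely, and 6 ratios had the same sign in all pairs under the replicate block. Same-numbered libraries deviated together with correlations over genes of 0.43, 0.20 and -0.11, so that the numbers were not taken as pairs. Over all genes the block moved the calls from 1525 higher and 1619 lower to 1657 and 1661. Genes called higher numbered 1823 of 13691 with DESeq2, 1803 of 13691 after the GC and length correction and 1732 of 23345 without the filter. They numbered 1577 with limma-voom, 1534 with DESeq2 size factors and 1511 with upper quartile scaling. Fits that left out 1 library called 657 to 1672 higher, and the fit without both libraries that stand apart 1933 of 12786. Il6ra in Foxo1TKO rests on 6 to 16 counts per library, which limits how far its fold can be resolved.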
